A study of Mus musculus with 18 samples.

Results

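The genes described here are protein-coding mouse genes of 7 families, labelled together as placenta-specific, though some members are best known from other tissues. They were chosen by gene name from the deposited count table: 17 prolactin-like genes (Prl), 2 trophoblast specific protein genes (Tpbpa and Tpbpb), 5 placental cathepsins (Cts), 6 pregnancy specific glycoproteins (Psg), 9 carcinoembryonic antigen-related cell adhesion molecules (Ceacam), 7 serine protease inhibitors of the Serpinb9 group, and the transglutaminase Tgm5. This gave 47 of the 21995 genes in the table. RNA-seq had been run on mouse embryonic stem cells (ESCs), which are pluripotent and grown in culture, in parental cells and in cells that the labels call Oct1 cKO. Oct1 is the product of Pou2f1, a POU transcription factor that binds the octamer motif. Both genotypes were sampled undifferentiated (day 0) and on days 2 and 6 of treatment with retinoic acid, a vitamin A derivative given at 1.5 ug/ml on 0.01% gelatin, with 3 libraries for each of the 6 groups. The labels give no clone number, strain or agent used to delete Oct1, and do not state that replicate libraries are separate cultures. The p-values then reflect only the spread among replicate libraries, which could be technical.

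In the mouse placenta, trophoblast cells differentiate into giant cells, spongiotrophoblast, glycogen cells and the layers of the labyrinth. Several gene families have expanded in rodents into tandem arrays whose copies are expressed in one or another of these cells, among them the prolactin-like hormones, the placental cathepsins and the Serpinb9 inhibitors. The Psg and Ceacam genes belong to a single large group of immunoglobulin-like proteins, in which Psg products are secreted into the maternal blood and many Ceacam products are cell surface adhesion molecules. ESCs under ordinary conditions form trophoblast only rarely.

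Total counts ran from 13694126 to 19296966 per library. Pou2f1 itself was lower in the Oct1 cKO than in the parental libraries on each day, from 124 to 135 CPM (counts scaled to library size) against 62.4 to 88.2 on day 0, and from 61.1 to 64.9 against 36 to 45.3 on day 6. Its reads were therefore reduced and not absent, and the labels do not say which exons were deleted. Oct1 cKO day 0 replicate 3 stood furthest from its group by the chi-square statistic of its counts. Of the fixed cell type markers, those of ESCs fell from a summed 2693 to 2738 CPM on day 0 to 7.01 to 8.92 CPM on day 6 in parental libraries and from 3292 to 3655 to 70 to 72.5 CPM in the Oct1 cKO. The day 6 sum in the Oct1 cKO was mainly Pou5f1 (0.362 CPM in parental against 31) and Zfp42 (5.92 against 39.4). Nanog (1.34 against 0.342 CPM) was lower there, and Sox2 was low in both (0.191 against 0.643 CPM). On day 6 the 10 extraembryonic endoderm markers summed to 10723 to 10971 CPM in parental and 17275 to 18524 CPM in Oct1 cKO libraries, a sum carried mainly by Sparc, Col4a1 and Lama1, while Gata6 (304 against 68 CPM) and Afp (11.1 against 8.4 CPM) were lower in the Oct1 cKO. The 6 fibroblast markers summed to 2783 to 2958 CPM against 315 to 376 CPM, a sum carried mainly by Col1a1 and Col1a2. Postn (49.5 against 57.5 CPM) and Thy1 (1.85 against 2.06 CPM) were not lower in the Oct1 cKO. The 6 markers of 2-cell-like cells summed to 0.47 to 0.83 CPM against 13.4 to 15.8 CPM (18.3 to 20 against 98.4 to 99.7 CPM on day 0). The 5 blood and immune markers in the table summed to at most 0.889 CPM on day 6, with Ptprc and Cd3e at 0 in the parental libraries. What part these cell types have in the differences below was not tested. In bulk RNA, fewer cells of a type and less RNA per cell cannot be told apart.

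Members lie close together in the genome. By the GENCODE M21 annotation of GRCm38, 31 of the 47 are on chromosome 13 and 15 on chromosome 7, with Tgm5 alone on chromosome 2. The label of the gene set rests on 4 marker genes: Tpbpa (chr13:60938492-60941984, minus strand), a marker of spongiotrophoblast; Ctsj (chr13:61000179-61005959, minus strand), a placental cathepsin; Serpinb9e (chr13:33249612-33260850, plus strand), a Serpinb9 copy; and Ceacam9 (chr7:16721929-16726132, plus strand), a placental Ceacam gene. Near-identical copies can share reads, so each family was also summed. In the annotated transcripts 16 members had no stretch of 50 bases in common with another gene, and 13 shared at least 20% of such stretches. By coding sequence the closest Prl pair was Prl2c2 and Prl2c3 at 99.6% identity, with Prl3d1 and Prl3d3 at 98.7%. The closest Serpinb9 pair was Serpinb9f and Serpinb9g at 98.7%, and the closest Ceacam pair was Ceacam1 and Ceacam2 at 90.3%. Because many reads cannot separate genes that share sequence, the values of Prl2c2 (83.3% shared), Serpinb9f (78.7%), Prl3d3 (67.5%), Prl2c3 (60%), Prl3d1 (55.6%), Serpinb9g (54.8%), Cts8 (52.1%), Ceacam2 (47%), Prl2c5 (35.1%), Serpinb9d (30.8%), Ceacam1 (30.4%), Serpinb9e (28.4%) and Prl2c1 (26.4%) are uncertain as single genes. Cts8 shared no such stretch with other members. Its closest gene was Gm49398 (50.5%), whose exons overlap its own on the same strand. No stretch of 50 bases was shared with any other gene by Ctsj, Ceacam9, Tgm5 or Prl7b1, and Serpinb9b shared 0.478% and Tpbpa 4.18%.

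Shared sequence limits which members a read can tell apart, as 1 end of the coding sequence shows here for 2 sets. Over the whole coding sequence most pairs differed more than in these windows. Identity ran from 90.2% (Prl2c1 and Prl2c5) to 99.6% (Prl2c2 and Prl2c3) in the Prl2c set. It ran from 94.3% (Serpinb9d and Serpinb9f) to 98.7% (Serpinb9f and Serpinb9g) in the Serpinb9 set. Reads outside the coding sequence are not covered. The last 60 coding bases of 4 members of the Prl2c group, the proliferins, differ at 1 position, in capitals.
Prl2c1: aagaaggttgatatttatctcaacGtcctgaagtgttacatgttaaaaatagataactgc
Prl2c2: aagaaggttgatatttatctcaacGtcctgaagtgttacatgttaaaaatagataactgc
Prl2c3: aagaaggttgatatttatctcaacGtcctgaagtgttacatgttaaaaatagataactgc
Prl2c5: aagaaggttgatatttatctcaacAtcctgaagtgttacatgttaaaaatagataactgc
The first 60 coding bases of 4 Serpinb9 copies differ at 2 positions, again in capitals.
Serpinb9d: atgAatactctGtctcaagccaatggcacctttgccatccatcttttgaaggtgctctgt
Serpinb9e: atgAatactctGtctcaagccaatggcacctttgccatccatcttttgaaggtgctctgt
Serpinb9f: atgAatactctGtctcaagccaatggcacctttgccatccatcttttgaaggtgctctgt
Serpinb9g: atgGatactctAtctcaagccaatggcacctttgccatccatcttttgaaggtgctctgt
In these windows Serpinb9g can be told from the other copies shown, and Serpinb9d, Serpinb9e and Serpinb9f cannot be told from each other.

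Promoter sequence was read from RefSeq (GRCm38.p6), which matched 40 of the 47 members. It is shown for the Tpbp pair, which were lower in the Oct1 cKO on day 6, and for Serpinb9e and Serpinb9b, which were higher. Of the other genes that were lower on day 6, Prl2a1 also held an octamer. Ctsj and Ceacam9 held no octamer but other motifs, and Tgm5 held none of the 6 searched. Capitals mark motif matches on either strand. Tpbpa, chr13:60942037-60942186, minus strand, from 250 to 101 bases before the RefSeq start, holds an octamer and a match to the AP-2 motif.
Tpbpa: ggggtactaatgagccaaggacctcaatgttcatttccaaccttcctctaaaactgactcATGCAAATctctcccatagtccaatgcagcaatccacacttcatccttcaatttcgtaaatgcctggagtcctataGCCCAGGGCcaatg
Tpbpb, chr13:60904948-60905097, minus strand, holds the same 2 motifs over the same span.
Tpbpb: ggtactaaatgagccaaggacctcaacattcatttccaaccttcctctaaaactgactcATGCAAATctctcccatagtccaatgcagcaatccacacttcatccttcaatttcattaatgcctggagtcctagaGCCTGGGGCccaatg
Serpinb9e, chr13:33249358-33249607, plus strand, holds 2 matches to the nuclear receptor half-site in the 250 bases before its start.
Serpinb9e: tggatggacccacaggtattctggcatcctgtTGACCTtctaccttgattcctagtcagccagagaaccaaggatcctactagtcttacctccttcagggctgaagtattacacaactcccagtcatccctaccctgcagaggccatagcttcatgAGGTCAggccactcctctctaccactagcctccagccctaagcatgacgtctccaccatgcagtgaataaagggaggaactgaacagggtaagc
Serpinb9b, chr13:33027164-33027413, plus strand, holds none of the 6 motifs searched.
Serpinb9b: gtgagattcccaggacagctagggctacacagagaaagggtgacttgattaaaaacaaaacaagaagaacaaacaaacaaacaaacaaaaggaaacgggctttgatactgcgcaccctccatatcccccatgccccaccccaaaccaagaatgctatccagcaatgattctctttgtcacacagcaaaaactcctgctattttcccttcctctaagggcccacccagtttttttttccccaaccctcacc

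Over both strands of the 250 bases before each start, the octamer ATGCAAAT, the motif bound by POU factors, was found in Tpbpa, Tpbpb and Prl2a1, or 3 of the 40 matched members, and in 1.6% of 32851 promoters of all genes. The nuclear receptor half-site AGGTCA was found in 10 members, among them Serpinb9c, Serpinb9d, Serpinb9e, Serpinb9f and Serpinb9g, and in 14% of all promoters. AGATAA, the GATA motif, was found in 10 members and 9.99% of all promoters, and GGAATG, the TEAD motif, in 6 members and 12.6%. GCCNNNGGC, the AP-2 motif, was found in 7 members and 13.7% of all promoters, and TATAAA in 4 members and 12.4%. Members are counted here by gene and all genes by promoter. Of the 45 promoters of the matched members, 3 held the octamer, 10 the half-site and 12 the GATA motif. The TEAD motif was in 7 of them, the AP-2 motif in 7 and TATAAA in 5. No matches overlapped in the sequences printed above. These matches describe the letters in the window and show no binding. Copies with similar promoters are not independent of each other.

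Most members were at or near 0 counts before day 6. The exceptions were in the Ceacam and Serpinb9 families, described further on, and Psg16 and Psg17, with 60 and 26 counts over days 0 and 2. Over the 12 libraries of days 0 and 2, 20 members had 0 counts in every library, 16 had 1 to 9 counts in all, and 11 had 10 or more. A single count was worth 0.0452 to 0.0784 CPM in the 12 libraries. On day 0, 6 members reached a mean of 1 CPM in parental and 5 in Oct1 cKO cells. On day 2 the number was 3 in each genotype. On day 6 it was 33 in parental and 27 in Oct1 cKO cells, 26 of them in both. Of the 36 members with under 10 counts before day 6, 29 reached 1 CPM on day 6 in at least 1 genotype. A filter on low counts left 39 members for testing, most of which passed it through day 6, so their rise by day 6 was partly fixed by the filter. In edgeR's quasi-likelihood test, 35 members were higher and 4 lower on day 6 than on day 0 in parental cells, where 85.5% of all 18352 genes tested were called (45.3% higher and 40.2% lower). Cells of the Oct1 cKO had 34 members higher and 3 lower, where 81.8% of all genes were called (41.4% higher and 40.4% lower).

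The largest day 6 levels in parental cells, among genes at or near 0 counts before, were those of the 4 placental markers and Tgm5. Tpbpa had 0 counts in all 12 libraries of days 0 and 2 and 5758 counts over the 3 parental libraries of day 6, at least 544-fold higher than on day 0 against the floor of 3 counts per library. The bound was at least 391-fold for Serpinb9e, 357-fold for Ctsj, 314-fold for Ceacam9 and 313-fold for Tgm5. In the Oct1 cKO the bounds were at least 169-fold for Tpbpa, 120-fold for Ctsj and 76.5-fold for Ceacam9. Serpinb9e in Oct1 cKO libraries rose from 6 counts over the 3 day 0 libraries to 10212 counts over those of day 6. Bounds ranged from 1.78-fold to 150-fold for 12 Prl members in parental and from 1.47-fold to 99.9-fold for 11 in Oct1 cKO cells. The 4 placental markers together summed to 271 to 320 CPM in parental libraries of day 6 and to 270 to 299 CPM in those of the Oct1 cKO. That near-equal sum held opposite differences, since Serpinb9e was higher and the other 3 were lower in the Oct1 cKO.

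**Figure D1:**
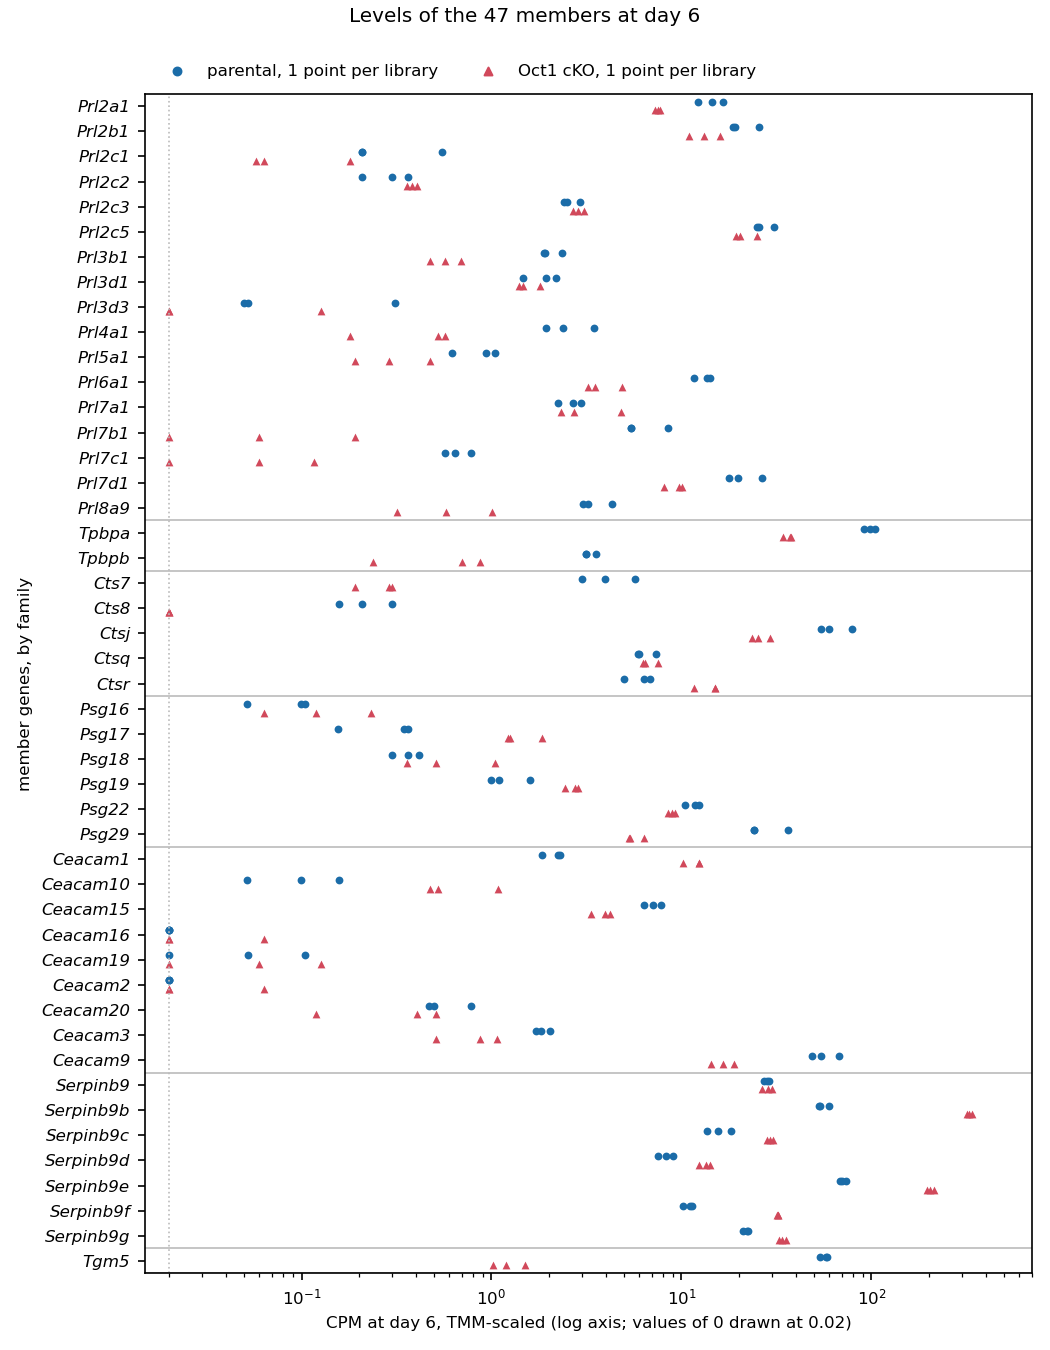
Level of each of the 47 members on day 6 in CPM (log axis, 1 point per library, circles parental and triangles Oct1 cKO), with values of 0 drawn at 0.02. The Oct1 cKO points lie to the left of the parental points for most Prl genes, both Tpbp genes and Tgm5, and to the right for 6 of the 7 Serpinb9 genes.

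The main contrast between the genotypes was on day 6, and it ran in opposite directions in different families. Of the 39 members tested, the Oct1 cKO had a higher level of 11, a lower level of 21, and 7 were not called. Several passed the filter only through the genotype where they were high, such as Prl7b1 (379 counts in parental and 4 in Oct1 cKO libraries) and Psg17 (17 and 71). For such members a difference was partly fixed by the filter. Over all genes tested, 74.5% were called, 36.7% higher and 37.8% lower, so members were called about as often as other genes. The median log2 fold change of the tested members was -0.66, against 0.00 over all genes. By family, 11 Prl members were lower and 3 not called, both Tpbp members were lower, and 2 Cts members were lower, 1 higher and 1 not called. In the Psg family 2 were lower and 2 higher. In the Ceacam family 3 were lower, 2 higher and 2 not called. In the Serpinb9 group 6 were higher and 1 was not called. Tgm5 was lower. The summed level of each family is free of how reads were split among members only if each read was counted once, which is not stated. It can also hold reads shared with genes outside the family (such as Gm11397 for Serpinb9f and Serpinb9g). Ratios of the sums, Oct1 cKO to parental, were 0.545 for Prl, 0.365 for Tpbp, 0.576 for Cts, 0.466 for Psg, 0.496 for Ceacam, 3.17 for Serpinb9 and 0.0219 for Tgm5. Some sums were mostly 1 member in parental cells. Ctsj held 79.2% of the Cts sum there (55.4% in the Oct1 cKO), and Ceacam9 82.8% of the Ceacam sum (48.8%).

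**Figure D2:**
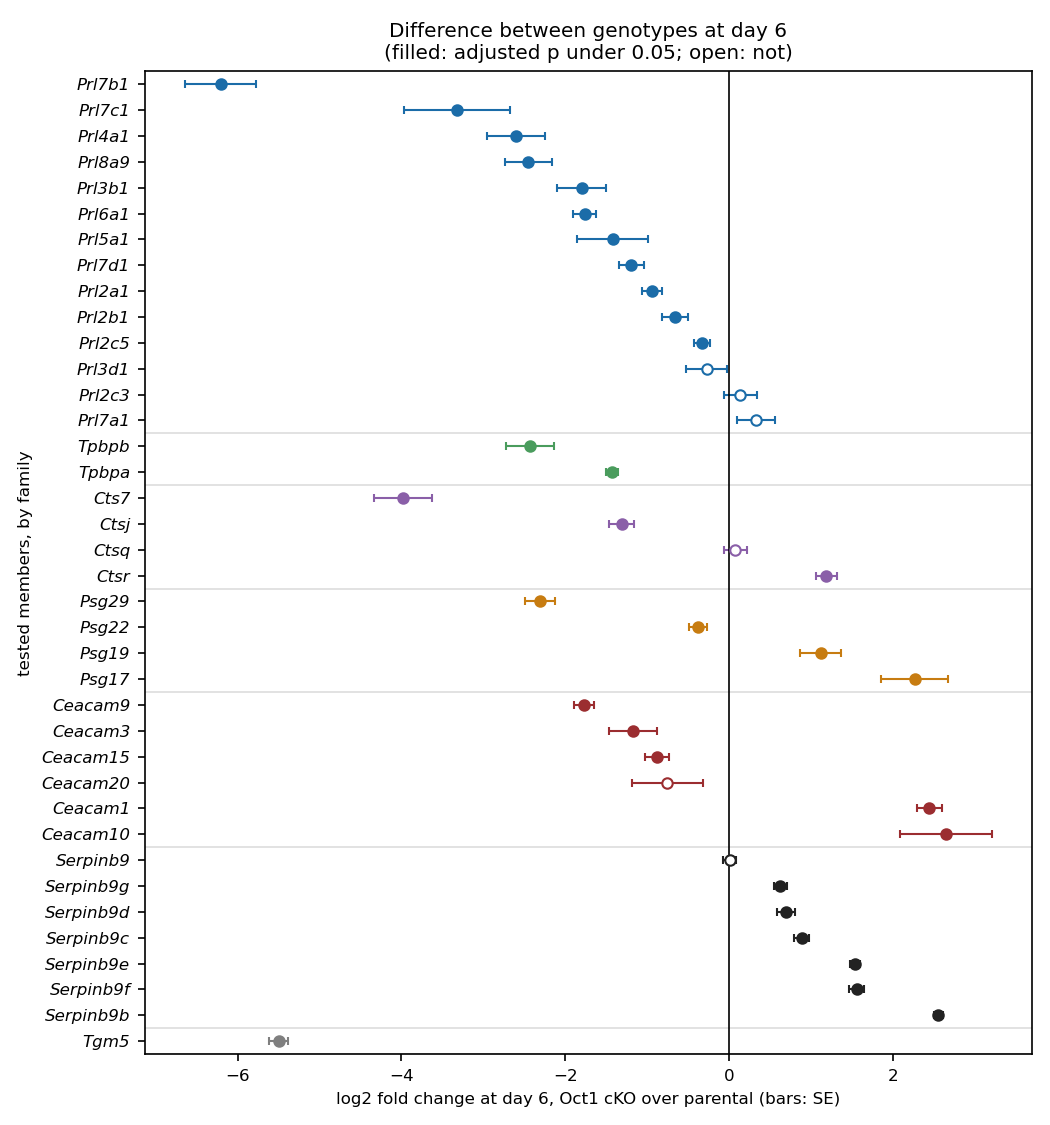
log2 fold change between genotypes on day 6 (horizontal axis, Oct1 cKO over parental, bars are SE from the fit of all 18 libraries, 3 per group) for tested members, by family, with filled points for adjusted p under 0.05. All Serpinb9 copies but Serpinb9 itself lie right of 0, and Prl7b1 and Tgm5 lie furthest left at -6.21 and -5.50. Prl7c1 is drawn at its fitted value, which rests on 3 counts in the Oct1 cKO, and Ceacam2 (1 count) is not drawn.

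The prolactin-like hormones are secreted proteins of the placenta related to pituitary prolactin. As a family they summed to 140, 117 and 106 CPM in the parental libraries of day 6 and to 71.9, 66.6 and 59.3 CPM in those of the Oct1 cKO, with no overlap. Prl2c5, a proliferin, held 22.4% of the parental and 32.8% of the Oct1 cKO sum. The greatest difference was in Prl7b1, a prolactin-like gene, which was at 8.5, 5.4 and 5.43 CPM in parental and at 0.0595, 0 and 0.191 CPM in Oct1 cKO libraries. Its log2 fold change was -6.21 ± 0.43 (SE; edgeR adjusted p = 9.20e-12), and it moved to -7.48 without Oct1 cKO day 6 replicate 3 and to -5.59 without replicate 2. In the Oct1 cKO, where Prl7b1 had 4 counts on day 6, its rise from day 0 was not called. Prl7c1 had 39 counts in the parental and 3 in the Oct1 cKO libraries, 11.1-fold lower (counting interval 3.52 to 56).

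Other Prl genes fell by smaller amounts. Prl4a1 was at 2.39, 3.48 and 1.93 CPM in parental and 0.179, 0.521 and 0.572 CPM in Oct1 cKO libraries, a log2 fold change of -2.60 ± 0.35. Prl8a9 was at 4.33, 3.22 and 3.03 CPM against 1.01, 0.579 and 0.318 CPM, or -2.45 ± 0.29. Prl3b1 encodes placental lactogen II, a hormone of later pregnancy. It was at 2.34, 1.92 and 1.88 CPM against 0.476, 0.695 and 0.572 CPM, or -1.80 ± 0.30. Prl6a1 was at 14.1, 13.7 and 11.7 CPM against 3.51, 4.86 and 3.24 CPM, or -1.76 ± 0.14. For each of these 4 genes the genotypes did not overlap. The share of all genes without overlap was not computed, so lack of overlap is description only, here and below. Prl5a1 was at -1.42 ± 0.43 and was not called by DESeq2 (adjusted p = 0.0562; 0.00114 to 0.0562 over the alternatives).

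Prl7d1 encodes proliferin-related protein, an inhibitor of blood vessel growth. It was at 26.4, 19.8 and 17.7 CPM in parental and 10.1, 9.72 and 8.13 CPM in Oct1 cKO libraries, a log2 fold change of -1.19 ± 0.15. Prl2a1 was at 16.5, 14.4 and 12.2 CPM against 7.68, 7.52 and 7.24 CPM (-0.94 ± 0.12). Prl2b1 was at 25.5, 19.1 and 18.7 CPM against 16, 13.1 and 10.9 CPM (-0.66 ± 0.16). These 3 genes, among the most abundant of the family, differed by less than those above, and their groups did not overlap. Prl2c5 was at 30.6, 25.6 and 25 CPM against 25.1, 19.4 and 20.3 CPM, with overlap, and its log2 fold change of -0.33 ± 0.10 (edgeR adjusted p = 0.00327) was not called by DESeq2, without parental day 6 replicate 1 or without Oct1 cKO day 6 replicate 2 (adjusted p = 1.33e-05 to 0.109 over the alternatives).

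In 3 Prl genes no difference was called, and the groups overlapped. Prl3d1, which encodes placental lactogen I, the hormone of trophoblast giant cells in mid-pregnancy, was at 1.94, 2.18 and 1.46 CPM in parental and 1.79, 1.39 and 1.46 CPM in Oct1 cKO libraries (-0.27 ± 0.25). Prl2c3, a proliferin that shares most of its sequence with Prl2c2, was at 2.49, 2.91 and 2.4 CPM against 2.68, 3.07 and 2.86 CPM (0.14 ± 0.20). Prl7a1 was at 2.69, 2.96 and 2.24 CPM against 2.32, 4.8 and 2.73 CPM (0.33 ± 0.23), with the high value in 1 library, and it was called without Oct1 cKO day 6 replicate 1 (0.51, adjusted p = 0.05) and not without Oct1 cKO day 6 replicate 2 (-0.02). Prl2c1, Prl2c2 and Prl3d3 were too low to be tested, with 5 to 19 counts in Prl2c1, 17 to 19 in Prl2c2 and 2 to 8 in Prl3d3 per group on day 6.

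Both trophoblast specific protein genes were lower in the Oct1 cKO. Tpbpa was at 105, 91.5 and 98 CPM in parental and 37.7, 37.3 and 34.4 CPM in Oct1 cKO libraries, a log2 fold change of -1.43 ± 0.07 (edgeR adjusted p = 1.39e-18). Tpbpb was at 3.53, 3.16 and 3.13 CPM against 0.238, 0.868 and 0.699 CPM, or -2.43 ± 0.29. Tpbpa held 96.8% of the sum of the pair in parental and 98.4% in Oct1 cKO cells.

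The placental cathepsins are lysosomal cysteine proteases that arose by duplication of the cathepsin L gene in rodents. They did not move together. Ctsj, the most abundant, was at 79.2, 59.8 and 54.4 CPM in parental and 29.1, 25.2 and 23.6 CPM in Oct1 cKO libraries, a log2 fold change of -1.31 ± 0.15. Cts7 was at 5.72, 3.94 and 2.98 CPM against 0.298, 0.289 and 0.191 CPM, or -3.98 ± 0.35. Ctsr rose: it was at 6.37, 6.85 and 5.01 CPM in parental and 15, 11.6 and 15.1 CPM in Oct1 cKO libraries, or 1.19 ± 0.13. Ctsr shares no 50-base stretch with another gene, and is 75.0% identical to Ctsj, the closest pair of the family. Ctsq was at 7.31, 5.91 and 5.95 CPM against 7.5, 6.31 and 6.42 CPM, with overlap, and was not called (0.08 ± 0.14). Cts8 had 13 counts in parental and 0 in Oct1 cKO libraries and was not tested.

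The Psg genes, which encode secreted glycoproteins of the trophoblast, also split. Psg29 was at 36.3, 24.1 and 24.2 CPM in parental and 5.3, 6.37 and 5.34 CPM in Oct1 cKO libraries, a log2 fold change of -2.31 ± 0.18. It made up 67.6% of the family in parental cells. Psg22 was at 12.4, 11.8 and 10.4 CPM against 8.87, 8.51 and 9.21 CPM (-0.38 ± 0.11), and it was not called without parental day 6 replicate 1 (adjusted p = 0.053; 3.36e-05 to 0.053 over the alternatives). Psg19 was higher, at 1.59, 1.09 and 0.992 CPM in parental and 2.74, 2.43 and 2.86 CPM in Oct1 cKO libraries (1.12 ± 0.25). Psg17, its closest relative at 87.1% coding identity, was at 0.348, 0.156 and 0.365 CPM against 1.25, 1.22 and 1.84 CPM (2.27 ± 0.41). The abundant members were lower and the scarce ones higher. Psg18 (21 counts in parental and 32 in Oct1 cKO libraries) and Psg16 (5 and 7 counts) were not tested.

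Among the Ceacam genes, the 3 that were at or near 0 before day 6 were lower in the Oct1 cKO. Ceacam9 was at 67.1, 54.1 and 48.8 CPM in parental and 18.8, 16.6 and 14.3 CPM in Oct1 cKO libraries, a log2 fold change of -1.77 ± 0.12. Ceacam15 was at 7.76, 7.11 and 6.32 CPM against 4.23, 3.36 and 3.94 CPM (-0.88 ± 0.15), and Ceacam3 at 2.04, 1.82 and 1.72 CPM against 1.07, 0.868 and 0.508 CPM (-1.17 ± 0.29). The groups did not overlap for any of the 3. Ceacam16 and Ceacam2 had at most 1 count on day 6 in either genotype, and Ceacam19 had 3 counts in each.

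The Serpinb9 group, inhibitors of serine proteases in the cytoplasm, was the family that was higher in the Oct1 cKO. It summed to 206, 218 and 210 CPM in parental and to 693, 656 and 660 CPM in Oct1 cKO libraries. Serpinb9b (chr13:33027416-33041884, plus strand) was at 53.8, 59.6 and 52.8 CPM against 340, 318 and 325 CPM, a log2 fold change of 2.56 ± 0.06 (edgeR adjusted p = 4.93e-32). Serpinb9e was at 68.2, 73.6 and 69.9 CPM against 214, 204 and 197 CPM (1.54 ± 0.06). Both genes were far apart between the genotypes relative to the spread of the libraries.

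Another 4 copies were also higher, and most of them share reads. Serpinb9f was at 11.4, 10.2 and 11.1 CPM in parental and 31.8, 32.4 and 32.2 CPM in Oct1 cKO libraries (1.56 ± 0.09). Serpinb9c was at 13.6, 15.6 and 18.2 CPM against 28.2, 30.2 and 29.2 CPM (0.89 ± 0.09). Serpinb9d and Serpinb9g, whose log2 fold changes were 0.70 ± 0.11 and 0.63 ± 0.08, also did not overlap. Serpinb9, which encodes the inhibitor of granzyme B and is best known from lymphocytes, stood apart: it was at 28.9, 28.3 and 27.1 CPM against 30, 26.5 and 28.6 CPM, with overlap, and was not called (0.01 ± 0.08). With no scaling of library sizes it was called lower (-0.19, adjusted p = 0.0231). That setting moves the median of all genes by -0.19. The exons of Serpinb9b overlap those of Gm36099 on the opposite strand, and the strand setting of the counts is not given in the sources used here.

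Tgm5 (chr2:121046111-121085841, minus strand) encodes a transglutaminase, an enzyme that cross-links proteins and is best known from the outer layers of the skin. It was at 58.1, 57.7 and 53.8 CPM in parental and 1.19, 1.5 and 1.02 CPM in Oct1 cKO libraries of day 6. The log2 fold change was -5.50 ± 0.12 (edgeR adjusted p = 1.91e-30). In the Oct1 cKO Tgm5 still rose over day 0, from 2 to 62 counts over 3 libraries, 26.1-fold (counting interval 6.94 to 221).

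Levels can be compared between genes per kilobase of annotated exon. In parental cells of day 6 Tpbpa led with a mean of 46.1 CPM per kb (range 42.9 to 49.4), followed by Ctsj with 45.2 (38.2 to 55.6), Ceacam9 with 40.1 (34.6 to 47.6) and Serpinb9e with 36.7 (35.5 to 38.3). The ranges of neighbours in this order overlapped. In the Oct1 cKO the order began with Serpinb9e at 107 CPM per kb (103 to 111) and Serpinb9b at 97.8 (95 to 101), whose ranges did not overlap, and went on with Prl2c5 at 18.4, Ctsj at 18.2, Serpinb9g at 17.7 and Tpbpa at 17.1. Serpinb9b had been at 16.5 CPM per kb (15.8 to 17.8) in parental cells.

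Several members were expressed before day 6. Of these, Serpinb9 and Serpinb9b were higher on day 6 than on day 0 in both genotypes, and Ceacam10, Ceacam20 and Ceacam2 were lower. Of the members tested, 3 were called between the genotypes on day 0, where 53.5% of all genes were (26.4% higher and 27.0% lower): Ceacam1 was higher and Ceacam20 lower in the Oct1 cKO, and Serpinb9e was called higher on 6 counts against 0, which is within the floor of 3 counts per library. On day 2, 4 were called, where 67.3% of all genes were (33.7% higher and 33.6% lower): Ceacam1 and Ceacam10 were higher and Serpinb9 and Ceacam20 lower. From day 0 to day 2, 2 members were higher and 4 lower in parental cells (80.8% of all genes called, 43.2% higher and 37.7% lower), and 1 higher and 5 lower in the Oct1 cKO (76.5% called, 41.0% higher and 35.5% lower). The genotype by day interaction, which asks whether the change from day 0 differs between the genotypes, was called for 1 member on day 2, Serpinb9 (57.0% of all genes, 30.1% positive and 26.9% negative), and for 4 on day 6 (63.9%, 32.0% positive and 31.9% negative). The latter were Serpinb9b, Ceacam1 and Ceacam10, with a positive interaction, and Tgm5, with a negative one that rests on 0 and 2 counts on day 0. For members at or near 0 on day 0 the interaction is set by the model and is not given.

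**Figure D3:**
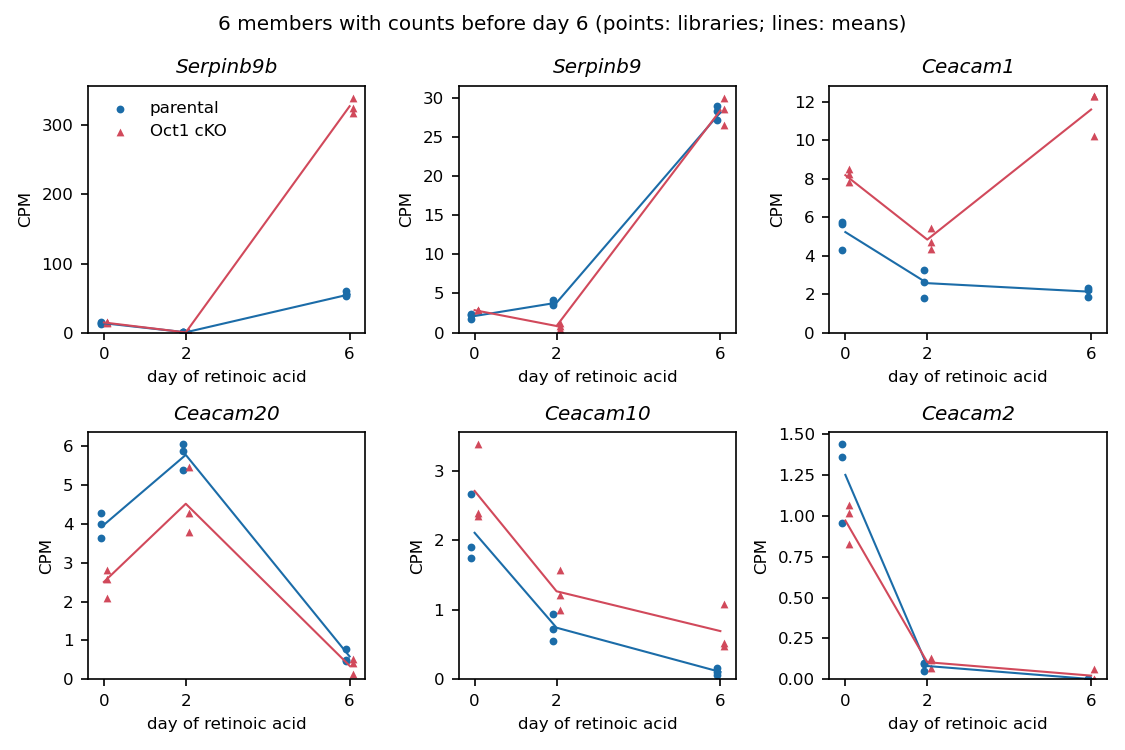
Level in CPM (vertical axes) of 6 members with counts before day 6, by day of retinoic acid, with points for libraries and lines through the means of 3. Serpinb9b falls to under 1 CPM on day 2 in both genotypes and then rises to 318 to 340 CPM in the Oct1 cKO against 52.8 to 59.6 CPM in parental cells, while Ceacam20, Ceacam10 and Ceacam2 end below their day 0 level.

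Serpinb9b was present in ESCs, nearly vanished on day 2 and returned on day 6. It was at 13.2, 14.9 and 12.5 CPM in parental and 15.4, 13.6 and 14.9 CPM in Oct1 cKO libraries of day 0. On day 2 it was at 0.497, 0.404 and 0.349 CPM against 0.19, 0.408 and 0.134 CPM, log2 fold changes from day 0 of -4.99 ± 0.17 and -5.83 ± 0.20. By day 6 it was above day 0 by 2.03 ± 0.07 in parental and by 4.48 ± 0.07 in Oct1 cKO cells. The interaction on day 6 was 2.45 ± 0.10 (edgeR adjusted p = 5.11e-22). Serpinb9 took another course. It rose from 1.75, 2.36 and 2.23 CPM to 4.16, 3.53 and 3.74 CPM from day 0 to day 2 in parental cells and fell from 2.86, 2.9 and 2.82 CPM to 0.443, 0.874 and 1.2 CPM in the Oct1 cKO. On day 2 it was lower in the Oct1 cKO, with a log2 fold change of -2.18 ± 0.21. Its day 0 difference of 0.43 ± 0.19 was not called, and was called by DESeq2, with DESeq2 size factors and without parental day 0 replicate 2 (adjusted p = 0.0454 to 0.229 over the alternatives). The interaction on day 2 was -2.61 ± 0.29 (edgeR adjusted p = 1.10e-09), and both genotypes then reached a like level on day 6.

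Ceacam1, an adhesion molecule of epithelia and leukocytes, was higher in the Oct1 cKO on all 3 days. It was at 4.31, 5.73 and 5.64 CPM in parental and 8.49, 8.23 and 7.84 CPM in Oct1 cKO libraries of day 0 (0.64 ± 0.14). On day 2 it was at 3.25, 1.82 and 2.64 CPM against 5.45, 4.72 and 4.34 CPM (0.90 ± 0.17), and on day 6 at 1.84, 2.23 and 2.3 CPM against 10.2, 12.3 and 12.3 CPM (2.45 ± 0.15). The genotypes did not overlap on any day. From day 0 to day 6 it fell by 1.30 ± 0.18 on the log2 scale in parental cells and rose by 0.50 ± 0.13 in the Oct1 cKO, an interaction of 1.81 ± 0.22 (edgeR adjusted p = 2.33e-09). Ceacam1 shares 30.4% of its 50-base stretches, nearly all with Ceacam2, which was at 1.44, 0.956 and 1.36 CPM in parental cells on day 0 and at 0 on day 6.

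Ceacam10 fell with differentiation in both genotypes, from 1.75, 1.91 and 2.67 CPM to 0.0995, 0.0519 and 0.157 CPM in parental cells and from 2.4, 2.35 and 3.39 CPM to 0.476, 0.521 and 1.08 CPM in the Oct1 cKO. The log2 fold changes were -4.27 ± 0.43 and -2.00 ± 0.29, the interaction on day 6 was 2.27 ± 0.62 (edgeR adjusted p = 0.00148), and the difference on day 6 was 2.65 ± 0.56. The parental value of day 6 rests on 6 counts. On day 2 Ceacam10 was higher in the Oct1 cKO by 0.77 ± 0.31 (edgeR adjusted p = 0.0281), a call lost in 5 of the alternatives (adjusted p up to 0.157). Ceacam20, known from the surface of the gut lining, was at 4, 3.65 and 4.28 CPM in parental and 2.1, 2.59 and 2.82 CPM in Oct1 cKO libraries of day 0 (-0.65 ± 0.19). It rose from day 0 to day 2 by 0.54 ± 0.15 in parental and 0.85 ± 0.19 in Oct1 cKO cells, and then fell below day 0 by day 6, with log2 fold changes of -2.76 ± 0.24 and -2.86 ± 0.32. On day 6 it was at 0.497, 0.467 and 0.783 CPM in parental and 0.119, 0.405 and 0.508 CPM in Oct1 cKO libraries, with overlap, and was not called (-0.75 ± 0.43), but it was called with no scaling (-0.96) and without Oct1 cKO day 6 replicate 3 (-1.13). Its day 2 difference of -0.35 ± 0.15 (edgeR adjusted p = 0.0401) was also lost in 5 of the alternatives (adjusted p up to 0.206). Ceacam2 fell below its day 0 level by at least 8.14-fold in parental cells by day 6. Ceacam16, known from the inner ear, had 24 counts in the parental libraries of day 0, 3 in those of the Oct1 cKO, and 0 and 1 on day 6. Psg16, known from brain as well as placenta, never exceeded 0.678 CPM in a library, and Psg17 reached 0.249 CPM at most before day 6.

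Genes of the trophoblast outside these families were compared on day 6, from a list of 30 regulators, keratins, imprinted and retrovirus-derived genes. Of the 27 tested, 25 were higher in the Oct1 cKO and 1 lower (Id2, an inhibitor of basic helix-loop-helix factors, -0.53 ± 0.06), with a median log2 fold change of 2.26, where 74.5% of all genes were called (36.7% higher and 37.8% lower). The 4 with the smallest adjusted p were Rhox9 (80.2 ± 1.24 against 606 ± 25 CPM, parental against Oct1 cKO, SD, n = 3; 2.92 ± 0.05), Rhox6 (84 ± 4.75 against 585 ± 28.3 CPM; 2.80 ± 0.06), Tfap2c (38.8 ± 2 against 246 ± 7.98 CPM; 2.67 ± 0.06) and Plet1 (47.5 ± 3.72 against 276 ± 9.02 CPM; 2.54 ± 0.06). Rhox6 and Rhox9 are homeobox genes of the placenta and germ line, Tfap2c is an AP-2 factor required in trophoblast, and Plet1 is a surface protein of early trophoblast. Most of this list was higher in the Oct1 cKO, while the Prl, Tpbp and Tgm5 members that differed were lower.

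Relatives of the placental families by sequence, name or function, which are not placenta-limited, were mostly higher too. They are called the paralogue list here, though some, such as Prlr, the prolactin receptor, are not paralogues. Of 20 tested genes of a list of 22, 15 were higher and 2 lower (Serpinb1a and Ctsf), with a median log2 fold change of 1.52, against the same 74.5% of all genes called (36.7% higher and 37.8% lower). The 4 with the smallest adjusted p were Ctsb, Ctsl, Bsg and Ctsh. Ctsl, cathepsin L, from which the placental cathepsins derive, was at 472 ± 15.3 CPM in parental and 1698 ± 22.6 CPM in Oct1 cKO libraries (SD, n = 3; 1.85 ± 0.05). Its placental relatives Ctsj and Cts7 were lower and Ctsr higher in the same libraries. Ctsb was at 459 ± 11.2 against 1651 ± 34.7 CPM (1.85 ± 0.05), Bsg, an immunoglobulin-like protein, at 744 ± 24.3 against 2522 ± 30.9 CPM (1.76 ± 0.05), and Ctsh at 15.8 ± 1.53 against 83.8 ± 4.24 CPM (2.41 ± 0.08).

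**Figure D4:**
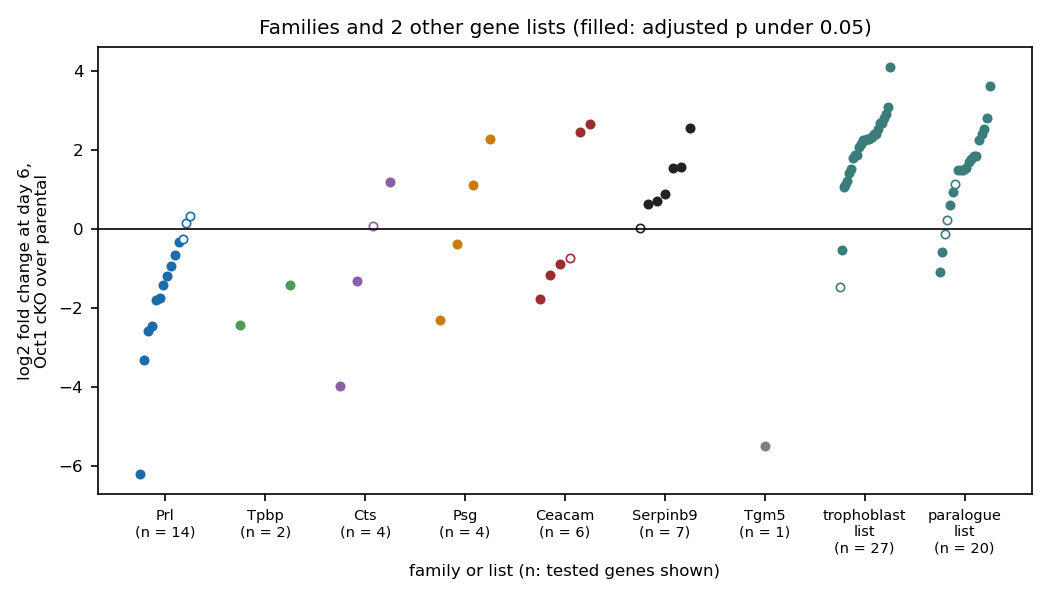
log2 fold change on day 6 (vertical axis, Oct1 cKO over parental) of each tested gene in the 7 families and in the 2 other lists, with filled points for adjusted p under 0.05. Ceacam2, with 1 count, is not drawn, and Prl7c1 and the open trophoblast point Gcm1 rest on 3 and 1 counts in the Oct1 cKO. The trophoblast and paralogue lists lie mostly above 0, at medians of 2.26 and 1.52, the Serpinb9 group lies at or above 0, and the Prl and Tpbp genes mostly below.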

How the data were processed

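The values deposited by the authors are raw counts per Ensembl gene, in 1 table of 18 libraries, not normalized. Per the submitters' processing notes the tools were Novoalign and DESeq2 1.10.0 and the builds mm10 and GRCm38, with no role or order. How reads were counted (tool, annotation release, strand, reads with several matches) is not given in the sources used here. Libraries were grouped by genotype and day. Replicate numbers follow sample order. Total counts set the precision, and intervals and floors cover counting error only.

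Counts were tested with edgeR 4.0.16 in R 4.3.3 (TMM scaling, filterByExpr with a minimum count of 10 and a minimum total of 15, robust quasi-likelihood fit, all 18 libraries, 1 coefficient per group, 9 comparisons). Adjusted p is the Benjamini-Hochberg value over the 18352 genes tested, called under 0.05. SE derives from the F statistic. The script was tested on simulated data. A fold against a group at 0 counts is a bound against 3 counts per library, and with 1 to 3 counts a ratio with an exact 95% interval. Alternatives were DESeq2 1.42.0, other scalings, no filter, a fit of the compared libraries only, and leaving out each library.

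Members and lists were chosen with earlier results of these data known. Members were named if they reached 1 CPM in a group, were 1 of the 4 markers, or were called and reached 0.2 CPM in a group; others named beside them were chosen after their values were seen. Of each other list, up to 4 genes with the smallest adjusted p were named per comparison; Id2, Serpinb1a, Ctsf and Gcm1 were named after their values were seen. Protein identity was planned; coding sequences of GENCODE M21 transcripts were used instead. Promoters are from RefSeq (GRCm38.p6).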

Additional observations from a re-analysis of the deposited data

Results flagged for a closer look

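In 4 members with at least 4 counts in each group compared, the change from day 0 differed between the genotypes by the interaction test of edgeR. Tgm5 was also called on day 6, on 0 and 2 counts on day 0, and its value is not given. Serpinb9 changed in opposite directions from day 0 to day 2, with an interaction of -2.61 on the log2 scale (SE 0.29), and every parental library of day 2 was above every parental library of day 0 while every Oct1 cKO library of day 2 was below those of day 0. From day 0 to day 6 the interaction was 1.81 (SE 0.22) for Ceacam1, which fell in parental and rose in Oct1 cKO cells, and 2.45 (SE 0.10) for Serpinb9b, which rose in both. It was 2.27 (SE 0.62) for Ceacam10, which fell in both and had 6 counts in the parental libraries of day 6.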

How the results depend on the processing

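For 86 single results, 1007 values were computed under alternatives. Of these, 972 kept their direction and side of the threshold, 15 kept the direction and lost the call, 9 gained a call and 11 changed sign. Sign changes were in results near 0. With no scaling, Prl2c3 was at -0.06, Ctsq at -0.13 and Serpinb9 at -0.19 (adjusted p = 0.0231) on day 6. Without 1 Oct1 cKO library of day 6, Prl7a1 was at -0.02 (replicate 2; -0.02 to 0.51 over the libraries left out), Ctsq at -0.03 (replicate 1; -0.03 to 0.23) and Serpinb9 at -0.05 and -0.01 (replicates 1 and 3). The Ceacam20 interaction on day 6 moved to 0.28 and 0.17 (-0.48 to 0.28), and the day 2 change of Serpinb9e in the Oct1 cKO, on 6 and 5 counts, to 0.02 and 0.11 (-1.91 to 0.11). The cause was not tested. No scaling moved the median log2 fold change of all genes on day 6 by -0.19, and DESeq2 size factors by 0.06.

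Counts of members called between genotypes on day 6 ran from 30 to 34 over all alternatives and from 30 to 33 with a library left out. On day 0 they ran from 3 to 5 with a library left out, with 5 without parental day 0 replicate 2, and were 2 in a fit of the compared libraries only. On day 2 there were 2 by DESeq2 against 4, and 3 to 4 with a library left out. The day 2 interaction gave 2 calls against 1 by DESeq2, with DESeq2 size factors, with no scaling and with no filter, and 1 to 2 with a library left out. From day 0 to day 6 the count was 38 to 39 in parental cells and 37 in the Oct1 cKO with a library left out, and 38 to 46 and 30 to 39 over all alternatives, where no filter (47 members) gave the highest counts and a fit of the compared libraries only (38 and 30 members tested) the lowest. The Tpbp ratio was 0.317 and the Serpinb9 ratio 2.75 with no scaling, and the Serpinb9 ratio 3.32 with DESeq2 size factors. Alternatives for the other lists were added after seeing the data: the trophoblast count ran from 26 to 28 and the paralogue count from 17 to 18. No paired analysis was possible because the labels give no replicate numbers that pair libraries. Members with under 10 counts are limited by depth.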

Other observations

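The trophoblast list, set out for day 6 above, followed another course on the earlier days. On day 0, 13 of its 27 tested genes were higher and 6 lower in the Oct1 cKO (median log2 fold change 0.40; 26.4% of all genes higher and 27.0% lower). On day 2, 6 were higher and 15 lower (median -0.57; 33.7% of all genes higher and 33.6% lower). From day 0 to day 6, 21 were higher and 5 lower in parental cells (45.3% and 40.2% of all genes) and, for the Oct1 cKO, 24 were higher and 3 lower (41.4% and 40.4%). Of the 20 tested genes of the paralogue list, 7 were higher and 6 lower on day 0, and 9 higher and 4 lower on day 2, against the same shares of all genes.

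Within day 6, replicate 1 was the highest library for 24 of the 39 tested members in parental cells and for 19 of 39 in the Oct1 cKO. The share over all genes was not computed, and members that share reads are not independent, so these counts are description only.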
